A study of Mus musculus with 6 samples.

Results

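Sertoli cells are the somatic cells of the seminiferous tubule, and 9 genes that specify them or carry their hormone signalling are described here across 6 mouse testis libraries. The 9 genes are Sox9, Wt1, Gata4, Gata1, Amh, Inha, Inhbb, Fshr and Clu. They were selected by gene symbol from the 24411 genes listed in each library, and all 9 symbols were found. RNA came from frozen testes of C57BL/6 mice, a standard inbred strain, that were matched for age. The age itself is not given in the sources used here. In 3 libraries the genotype label is MRP5-/- and MRP9-/- (double knockout, labelled DKO), and in 3 it is Wildtype (labelled WT). MRP5 and MRP9 are membrane transporters of the ABCC family encoded by Abcc5 and Abcc12. The sources used here do not describe the engineered alleles, the cells in which they act or any treatment. The design names 3 mice of each genotype, replicate numbers used here follow only the order of deposit, and p-values measure the spread between these samples.

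The libraries held 26753721 to 67131103 expected counts, the estimated number of sequenced fragments per gene summed over genes. Depth did not overlap between the groups, and neither did the mean fragment length, which was 275 to 317 bases in libraries labelled DKO and 230 to 258 bases in those labelled WT. The targeted gene Abcc12 had 82.1, 82.4 and 72.6 CPM (counts scaled to a common library size by TMM) in libraries labelled DKO and 164.8, 157.6 and 158.5 CPM in those labelled WT. Abcc5 had 17.0, 16.7 and 16.8 CPM against 10.5, 12.3 and 11.4 CPM. Abcc12 stood at 49.3% of the WT level in libraries labelled DKO (log2 fold change -1.02, SE 0.0739; edgeR adjusted p = 0.000307), whereas Abcc5 was higher (log2 fold change 0.56, SE 0.0896; edgeR adjusted p = 0.0225). Because the alleles are not described, the RNA levels of Abcc5 and Abcc12 do not settle the genotype, and groups are called by their labels throughout. The labelled tissue was checked against germ cell and neighbouring-organ markers. The spermatid gene Prm2 was at 37181 to 42073 TPM (transcript abundance scaled by transcript length and library), and the epididymal genes Lcn5 and Lcn8 had a count of 0 in all 6 libraries. Rnase10, another gene listed for the epididymis, was at 4.96 to 7.24 TPM.

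Sertoli cells surround and nourish germ cells and receive most of the hormonal input to spermatogenesis. SOX9 is the transcription factor that commits the fetal gonad to the Sertoli fate, WT1 and GATA4 are needed to form and keep that fate, and GATA1 is a related zinc-finger factor made by Sertoli cells in particular stages of the tubule. Follicle-stimulating hormone (FSH) from the pituitary acts on Sertoli cells through its receptor FSHR and cyclic AMP. Sertoli cells answer with inhibin B, a dimer of the inhibin alpha and beta B chains (Inha and Inhbb) that restrains FSH release. Anti-Müllerian hormone (Amh) removes the female ducts in the fetus and is made at much lower levels in the adult. Clusterin (Clu) is a secreted chaperone that Sertoli cells make in large amounts.

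Gene positions refer to GRCm38 (mm10). The positions from the RefSeq table for GRCm38.p6 are chr11:112782210-112787757 for Sox9 with 3 exons, chr2:105126529-105173614 for Wt1 with 10 exons and chr14:63198914-63271712 for Gata4 with 7 exons. Gata1 lies at chrX:7959260-7976663 with 6 exons, Amh at chr10:80805240-80807679 with 5 exons and Clu at chr14:65968483-65981548 with 9 exons. Inha and Inhbb are both on chromosome 1, at chr1:75507077-75510366 and chr1:119415463-119422248, and each has 2 exons. Fshr, at chr17:88984952-89200675, has 10 exons. Each of the 9 genes was quantified from a single RefSeq transcript, so its length was the same in every library and gives no measure of isoform use. Their counts were whole numbers in all 6 libraries. Gata1 overlaps the RefSeq long noncoding genes Gm39488 and Gm52419, which were not used here. How strand was handled is not given in the sources used here, so fragments of those genes cannot be told apart from Gata1.

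The promoters of Fshr, the FSH receptor, and Inhbb, a chain of the hormone that feeds back on FSH, are shown because they belong to the 2 ends of the FSH loop. The promoter table held windows for 4 of the 9 genes, and those of Inha and Gata1 are not shown, since the first overlaps an annotated exon and the second is not at the gene's outermost start. Both are the 250 bases before the annotated start, 5′ to 3′ on the strand of the gene (minus strand for both), from RefSeq on GRCm38.p6. The Fshr window is chr17:89200676-89200925 and the Inhbb window is chr1:119422249-119422498, and neither holds an annotated exon.
Fshr: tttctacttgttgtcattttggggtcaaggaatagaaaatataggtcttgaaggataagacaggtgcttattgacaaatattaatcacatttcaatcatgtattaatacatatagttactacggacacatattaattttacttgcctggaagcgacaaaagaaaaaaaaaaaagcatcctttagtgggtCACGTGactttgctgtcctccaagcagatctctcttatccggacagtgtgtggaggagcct
Inhbb: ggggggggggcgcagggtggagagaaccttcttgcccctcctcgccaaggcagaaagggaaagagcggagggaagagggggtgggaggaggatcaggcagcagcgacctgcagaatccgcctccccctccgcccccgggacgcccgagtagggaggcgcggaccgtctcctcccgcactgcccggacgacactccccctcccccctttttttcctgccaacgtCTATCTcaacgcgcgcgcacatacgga
Capitals mark the matches to any of 4 motifs searched on both strands, which do not overlap one another. These were the GATA motif (AGATAA and AGATAG, besides TGATAA and TGATAG), the E-box in the form CACGTG only, the NR5A1 motif (AAGGTCA or AAGGCCA) and the SOX motif (AACAAT). The Fshr window is 36.8% G and C and holds a single CACGTG, a word present in 6.02% of all 32851 promoter windows of this length. Other forms of the E-box were not searched. The Inhbb window is 68.0% G and C and holds a single GATA motif, printed as CTATCT and reading AGATAG on the opposite strand. Any of the 4 GATA words, on either strand, is present in 26.5% of all windows. The median window is 52.4% G and C. A match describes the letters of the window and is not evidence of binding.

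The 9 genes covered a wide range of abundance. Averaged over 6 libraries, Clu was the most abundant at 890 TPM (range 744 to 1139) and Inha followed at 98.4 TPM (76.6 to 123). Wt1 stood at 20.2 TPM (19.1 to 21.7), Inhbb at 15.6 TPM (13.3 to 18.8), Gata4 at 10.4 TPM (8.99 to 12.3) and Gata1 at 9.27 TPM (8.43 to 10.5). Sox9 was at 6.06 TPM (5.28 to 7.45), Amh at 2.41 TPM (1.64 to 3.37) and Fshr at 1.26 TPM (1.03 to 1.43). The ranges of neighbours in this order were separate except for Gata4 and Gata1, where Gata4 was above Gata1 in 5 of 6 libraries. Clu made up 83.6 to 85.2% of the summed TPM of the 9 genes, in libraries of both labels.

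**Figure D1:**
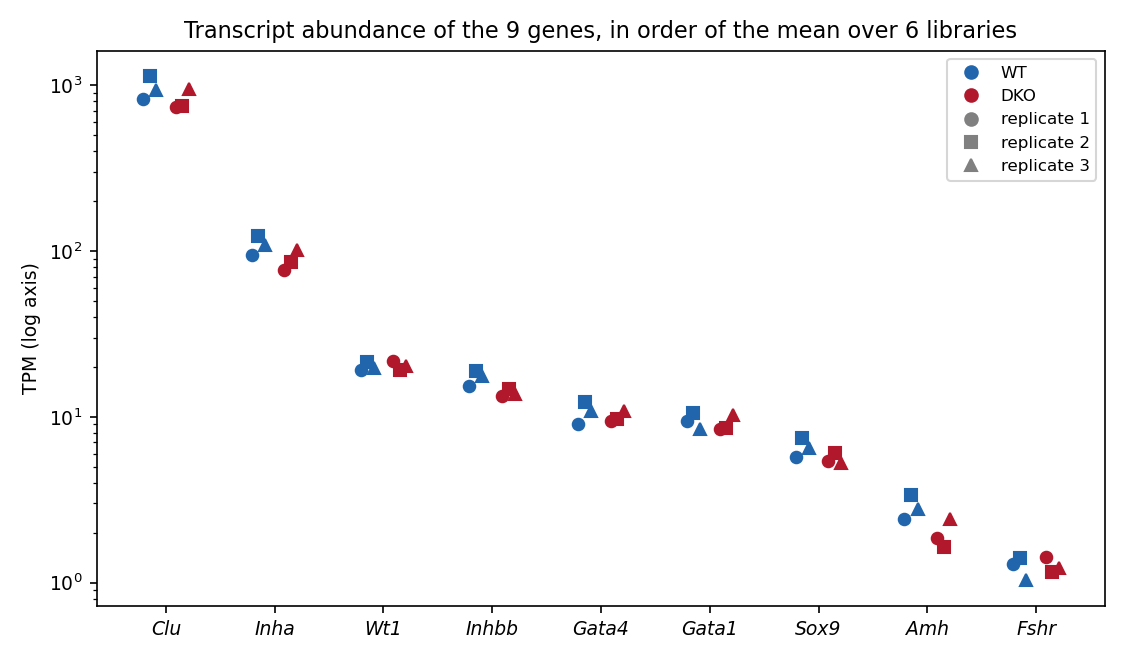
TPM on a log axis for each of the 9 genes, with 1 point per library (blue, labelled WT; red, labelled DKO; shape, replicate). Clu lies between 744 and 1139 TPM in every library and Fshr between 1.03 and 1.43 TPM, and the order of the genes is much the same in both groups.

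Comparing the groups asks whether the Sertoli programme differed between testes labelled DKO and WT. None of the 9 genes passed the test. By the edgeR quasi-likelihood test, 0 of 9 had an adjusted p under 0.05 over all 17110 tested genes, against 10.8% of all tested genes (5.75% higher and 5.10% lower in libraries labelled DKO). The 4 identity factors and Fshr had fitted levels between 89.9% and 106% of WT. The hormone chains Inha, Inhbb and Amh stood at 82.2%, 84.6% and 71.6% of WT, and Clu at 86.4%.

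At an unadjusted p under 0.05 there were 3 of 9 genes (33.3%), Amh, Inha and Inhbb, all lower, where 14.8% of all tested genes were lower at that level. In CPM the groups did not overlap in 2 of the 9 (22.2%), Amh and Inhbb, both lower, where 17.5% of all tested genes were lower without overlap. In TPM the groups overlapped for Amh. The median log2 fold change was -0.15 for the 9 genes and -0.0042 for all tested genes. DESeq2 gave an adjusted p to 8 of the 9, all but Fshr, and called 2 of them, Inha and Inhbb, both lower (adjusted p = 0.0364 and 0.0496), where 9.07% of the genes it gave an adjusted p were called lower. Limma on log2(TPM + 1) and on log2(TPM + 0.1) called 0 of the 9, where 4.30% and 5.53% of all tested genes were called. Whether a lower level reflects fewer Sertoli cells, less RNA per cell or RNA from other cell types cannot be told apart in whole tissue.

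**Figure D2:**
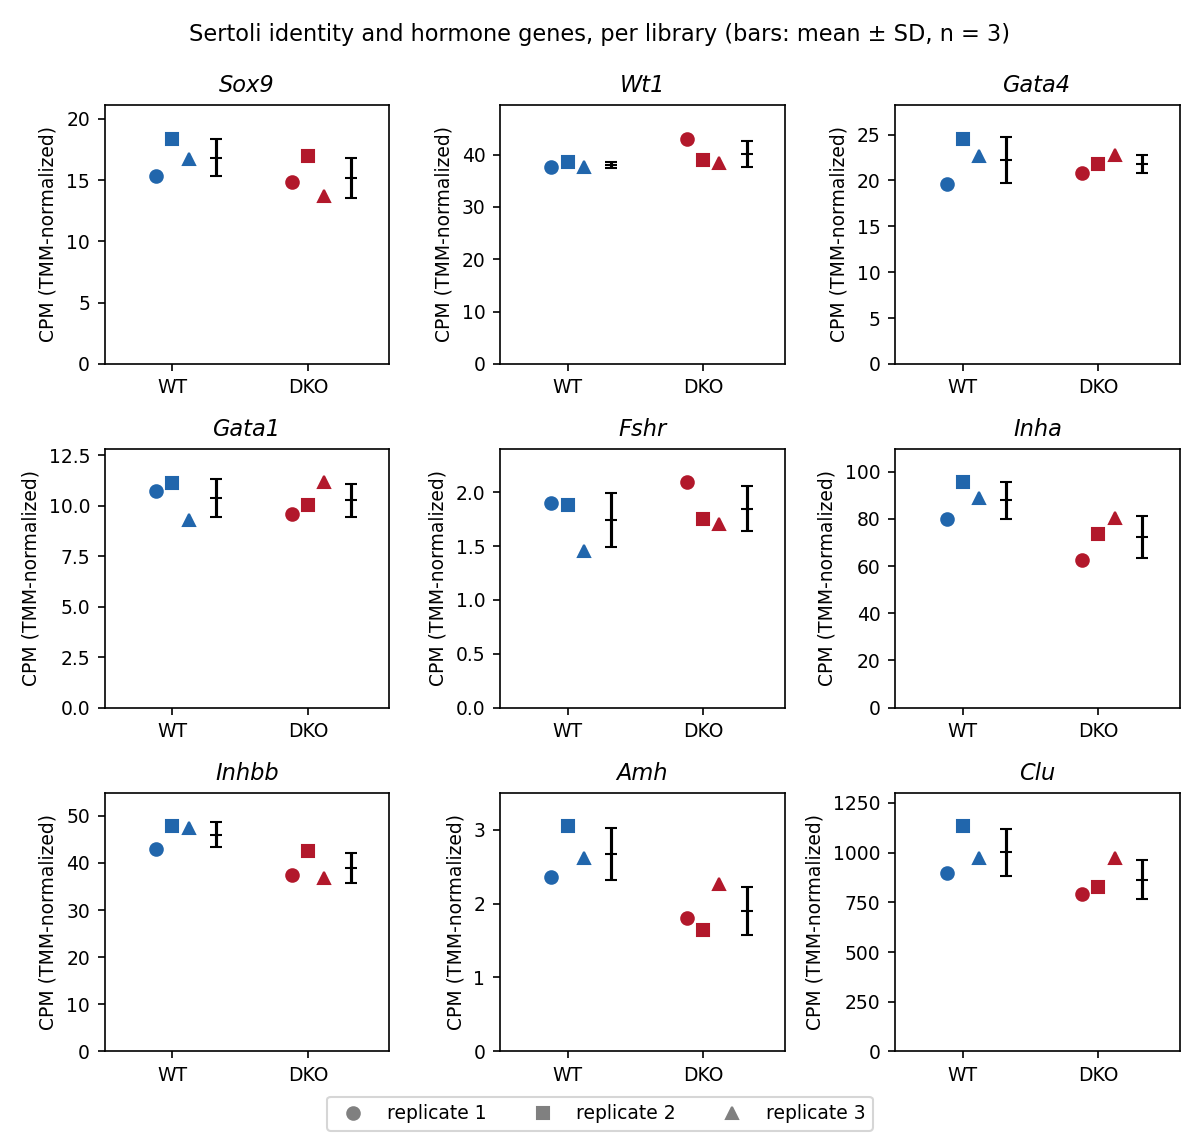
TMM-normalized CPM of each gene in each library, on axes from 0, with the mean and SD of each group (n = 3) in black. The groups overlap for all genes shown except Inhbb and Amh, and the library labelled WT, replicate 2 is the highest for 6 of the 9 genes.

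Among the identity factors, Sox9 had 14.9, 17.0 and 13.7 CPM in libraries labelled DKO and 15.4, 18.4 and 16.7 CPM in those labelled WT. The groups overlapped, and the log2 fold change was -0.15 (SE 0.105, 95% interval -0.38 to 0.076; edgeR adjusted p = 0.338), with a range from -0.249 without DKO replicate 2 to -0.083 without DKO replicate 3. Wt1 had 43.05, 39.0 and 38.3 CPM in libraries labelled DKO and 37.7, 38.6 and 37.55 CPM in those labelled WT. Wt1 was the steadiest of the 9, with a ratio of the highest to the lowest TPM of 1.135, and its highest value was in DKO replicate 1. Its log2 fold change was 0.079 (SE 0.0738) with a 95% interval from -0.082 to 0.24, or 94.45% to 118% of WT, and the edgeR adjusted p was 0.491.

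Gata4 had 20.8, 21.8 and 22.8 CPM in libraries labelled DKO and 19.6, 24.6 and 22.65 CPM in those labelled WT. All 3 DKO values lay inside the range of the WT values. Gata1 had 9.59, 10.0 and 11.15 CPM against 10.7, 11.1 and 9.31 CPM, again with overlap. The log2 fold changes were -0.031 for Gata4 (95% interval -0.24 to 0.18; edgeR adjusted p = 0.851) and -0.014 for Gata1 (95% interval -0.24 to 0.215; edgeR adjusted p = 0.939). Gata1 is also a gene of red blood cell precursors and mast cells. Of 10 markers of those cells, 6 averaged under 1 TPM and Hbb-bs and Hba-a2 were at a count of 0 in all libraries. However, Alas2, the erythroid form of the first enzyme of heme synthesis, was at 17.1 to 22.9 TPM. The highest of the remaining markers were Kit, a receptor also made by spermatogonia, at 5.96 to 10.1 TPM and Hba-a1, a globin gene with a near-identical copy, at 1.16 to 19.6 TPM. The summed TPM of that list was 28.8 to 45.8 in libraries labelled DKO and 28.8 to 36.5 in those labelled WT, and its part in the Gata1 values was not tested.

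The number of calls over all genes depended on single libraries. It was 1856, with 5428 genes at an unadjusted p under 0.05. It was 11, 13 and 7 without DKO replicate 1, WT replicate 2 and WT replicate 3, where 3571, 3793 and 4326 genes had an unadjusted p under 0.05. It was 655 without DKO replicate 2, 3029 without DKO replicate 3 and 2037 without WT replicate 1. A single gene (1) was called once mean fragment length was added to the fit. The calls named below are those over all 6 libraries.

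Of 15 further transcription factors of the Sertoli lineage or early gonad, 2 were called (13.3%, where 10.8% of all tested genes were called) and both fell. They were Rhox5, an X-linked homeobox gene (20.0 ± 0.667 TPM in libraries labelled DKO and 26.2 ± 2.47 TPM in those labelled WT, SD, n = 3 each; log2 fold change -0.44, edgeR adjusted p = 0.03065), and its neighbour in the cluster Rhox8 (log2 fold change -0.43, edgeR adjusted p = 0.0263). The other 13 did not pass the test. Among these Dmrt1, a keeper of male gonadal fate, had a log2 fold change of 0.040 and Nr5a1, the nuclear receptor SF-1, one of -0.23. Lhx9, at only 0.42 to 0.82 TPM, had the log2 fold change farthest from 0 of the 15, at 0.59 (edgeR adjusted p = 0.0621). It was higher in libraries labelled DKO without overlap. The fitted level was lower for 10 of the 15. The list's median log2 fold change was -0.16.

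Fshr was the least abundant of the 9 genes, with 45 to 115 counts per library. It had 2.09, 1.75 and 1.70 CPM in libraries labelled DKO and 1.90, 1.88 and 1.45 CPM in those labelled WT. The groups overlapped, with the highest value in DKO replicate 1 and the lowest in WT replicate 3. The log2 fold change was 0.078 with an SE of 0.184 and an edgeR adjusted p of 0.803. Counting error alone was 9.325 to 14.9% of the value per library, and the 95% interval ran from 79.8% to 139.7% of WT.

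Of 15 genes that relay the FSH signal, 4 were called (26.7%, where 10.8% of all tested genes were called), of which 3 fell and 1 rose, while the list's median was 0.027 on the log2 scale. Gnas, which encodes the stimulatory G-protein alpha subunit coupled to FSHR, fell from 108 ± 20.1 to 74.8 ± 2.34 TPM (SD, n = 3 each; log2 fold change -0.50, edgeR adjusted p = 0.0259). Gnb1, a G-protein beta subunit, and Pde4d, a cyclic AMP phosphodiesterase, also fell (log2 fold changes -0.25 and -0.45; edgeR adjusted p = 0.04275 and 0.0407). Appl1, an adaptor that binds FSHR, rose (log2 fold change 0.34, edgeR adjusted p = 0.0409). These genes act in many cell types, so their levels in whole testis are not those of Sertoli cells alone.

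The inhibin chains had lower values in libraries labelled DKO. Inha had 62.7, 73.4 and 80.5 CPM there and 79.7, 95.4 and 88.7 CPM in libraries labelled WT. The highest DKO value, replicate 3, lay just above the lowest WT value, replicate 1, so the groups overlapped. The log2 fold change was -0.28 (SE 0.0991, 95% interval -0.50 to -0.066; edgeR adjusted p = 0.0787). Inhbb had 37.4, 42.6 and 36.8 CPM in libraries labelled DKO and 42.9, 47.8 and 47.4 CPM in those labelled WT. These groups were separate by a narrow gap between DKO replicate 2 and WT replicate 1. The log2 fold change was -0.24 (SE 0.0821, 95% interval -0.42 to -0.062; edgeR adjusted p = 0.0731).

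The proportion of the inhibin chains overlapped between the groups. The ratio of Inha to Inhbb in TPM was 5.77, 5.82 and 7.32 in libraries labelled DKO and 6.16, 6.52 and 6.16 in those labelled WT (6.30 ± 0.883 and 6.28 ± 0.206, SD, n = 3 each; exact permutation test, two-sided, p = 1, adjusted over 4 ratios p = 1). Inhba, the alternative beta chain of inhibin A and activin A, had 2 to 10 counts per library (0.05 to 0.19 TPM) and was too low to test. Against Wt1, the steadiest of the 9 genes, the Inhbb ratio was 0.611, 0.772 and 0.681 in libraries labelled DKO and 0.807, 0.879 and 0.895 in those labelled WT. These ratios did not overlap (two-sided exact permutation p = 0.1, which is the least that 3 against 3 libraries allow; adjusted over 4 ratios p = 0.4). The ratio of Inha to Wt1 was 4.33 ± 0.742 against 5.41 ± 0.390 and overlapped between the groups (SD, n = 3 each; exact permutation p = 0.2, adjusted p = 0.4). The 4 ratios were singled out after their values were seen, and no p under 0.05 was possible with 3 against 3 libraries. These tests therefore cannot decide whether a ratio differed.

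Whether Inha was called depended on single libraries. Its sign turned when fragment length, which can hardly be separated from the label, entered the fit. The edgeR test passed for Inha without DKO replicate 3 (log2 fold change -0.37, adjusted p = 0.0252) and without WT replicate 1 (-0.37, adjusted p = 0.0476). With the mean fragment length as a covariate, the Inha log2 fold change turned to 0.14 and that of Inhbb was -0.14 (edgeR adjusted p = 0.999 for both).

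Amh had the log2 fold change farthest from 0 of the 9 genes in the fit without fragment length, and it rests on few fragments. It had 1.80, 1.64 and 2.265 CPM in libraries labelled DKO and 2.35, 3.04 and 2.62 CPM in those labelled WT. In CPM all 3 WT values were above all 3 DKO values, with the closest pair being DKO replicate 3 and WT replicate 1. In TPM that pair was 2.42 and 2.41, so the groups overlapped. The Amh values rest on 62 to 153 counts per library, for which counting error alone is 8.085 to 12.7%. The log2 fold change was -0.48 with an SE of 0.180 and an edgeR adjusted p of 0.0937, and the 95% interval ran from 54.5% to 94.1% of WT. Without DKO replicate 3 the difference passed the test (log2 fold change -0.64, edgeR adjusted p = 0.0446), and with fragment length as a covariate it was -0.066 (edgeR adjusted p = 0.999). The ratio of Amh to Sox9 in TPM, which sets the hormone gene against the factor known to switch it on, was 0.358 ± 0.0944 in libraries labelled DKO and 0.435 ± 0.0151 in those labelled WT (SD, n = 3 each; exact permutation test, two-sided, p = 0.4, adjusted over 4 ratios p = 0.533). This ratio too was singled out after its values were seen.

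The receptors and transducers of AMH, activin and their relatives were examined by list, and 10.8% of all tested genes is the share called to set beside each count. Amhr2, the receptor specific to AMH, was abundant at 132 to 165 TPM and overlapped between the groups (log2 fold change -0.094, SE 0.0774; edgeR adjusted p = 0.433). Of 12 receptors, 1 rose and 1 fell (16.7% called): Tgfbr1, a type I receptor for TGF-beta (log2 fold change 0.31, edgeR adjusted p = 0.0461), and Acvr2b, a type II activin receptor with only 21 to 54 counts per library (log2 fold change -0.98, edgeR adjusted p = 0.0346). Of 8 SMAD genes, which carry these signals to the nucleus, 1 was called (12.5%). Smad6, an inhibitory SMAD, fell from 7.91 ± 0.248 to 5.08 ± 0.662 TPM (SD, n = 3 each; log2 fold change -0.58, edgeR adjusted p = 0.025) and the other 7 did not pass the test. Of 10 ligands and binding proteins, 8 were tested and 1 was called (12.5%). Dhh, the hedgehog ligand that Sertoli cells send to Leydig and myoid cells, fell (log2 fold change -0.42, edgeR adjusted p = 0.0269). Fst and Fstl3, which bind and block activin, had log2 fold changes of -0.11 and -0.051 and did not pass the test.

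Clu had 792, 826 and 973 CPM in libraries labelled DKO and 896, 1132 and 973 CPM in those labelled WT. The value of DKO replicate 3 was level with that of WT replicate 3, so the groups overlapped. The log2 fold change was -0.21 (SE 0.103, 95% interval -0.44 to 0.014; edgeR adjusted p = 0.183), and it turned to 0.19 with fragment length as a covariate (adjusted p = 0.999). Without WT replicate 2 it was -0.121. Counting error was at most 0.651% of the value, so the spread between libraries sets this interval. Clu is also made by the epididymis, whose markers Lcn5 and Lcn8 were at 0, with Crisp1 at 0.04 to 0.17 TPM. Rnase10, another gene listed for the epididymis, was detected in every library at 4.96 to 7.24 TPM. Of 10 markers of epididymis and rete testis, 8 averaged under 1 TPM, and the summed TPM was 55.5 to 67.6 in libraries labelled DKO and 71.3 to 81.6 in those labelled WT. That sum was mostly Cldn3, a claudin also made in the testis, and its part in the Clu values was not tested.

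A separate list of 24 Sertoli markers, none among the 9 genes and 7 of them also on another list here, is given for comparison. Of these 24, 12 were called (50%) and all 12 fell, where 10.8% of all tested genes were called and 5.1% were called lower. The list's median was -0.32 on the log2 scale, and -0.068 with fragment length as a covariate. They include Defb19 and Defb36, beta-defensins of Sertoli cells (log2 fold changes -0.97 and -0.73), Drd4, a dopamine receptor gene used as a Sertoli marker (-0.61), Cst12, a cystatin (-0.51), Espn, an actin bundler of the Sertoli ectoplasmic specialization (-0.51), and Cldn11, the main claudin of the blood-testis barrier (-0.30; edgeR adjusted p between 0.0121 and 0.0402 for all 12). The remaining called genes were Trf, Vim, Eppin, Dhh, Rhox5 and Rhox8, with log2 fold changes from -0.44 to -0.34. Mean TPM, labelled DKO then WT, was 558 and 877 for Defb19, 157 and 224 for Defb36, and 352 and 451 for Cst12. It was 6.45 and 9.99 for Drd4, 42.4 and 61.6 for Espn, and 71.7 and 90.7 for Cldn11. The fall was smaller in TPM than in the fit for Defb19, Defb36 and Cst12, and not for Drd4, Espn and Cldn11. The fitted level was lower for 18 of the 24. Kitl, the ligand by which Sertoli cells support spermatogonia, had a log2 fold change of 0.31 (edgeR adjusted p = 0.0683). The others above 0 were Krt18 (0.29), Gdnf (0.10), Shbg (0.044), Ctsl (0.040) and Mro (0.031), none of them called. The list was drawn up with earlier results of these libraries known, so its count is not independent evidence of direction, and the difference between it and the 9 genes was not tested.

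The count of 12 depended on single libraries, while the median moved less. The count was 0 without WT replicate 3, 1 without WT replicate 2, 1 without DKO replicate 1 and 6 without DKO replicate 2, with 13 or 14 of the 24 at an unadjusted p under 0.05 in each of these fits. The median log2 fold change in these fits was -0.324, -0.22, -0.307 and -0.326 in that order. The count was 14 without DKO replicate 3 and 13 without WT replicate 1. It was 11 when effective lengths entered the fit as an offset, and 0 with the mean fragment length as a covariate, where 2 had an unadjusted p under 0.05.

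**Figure D3:**
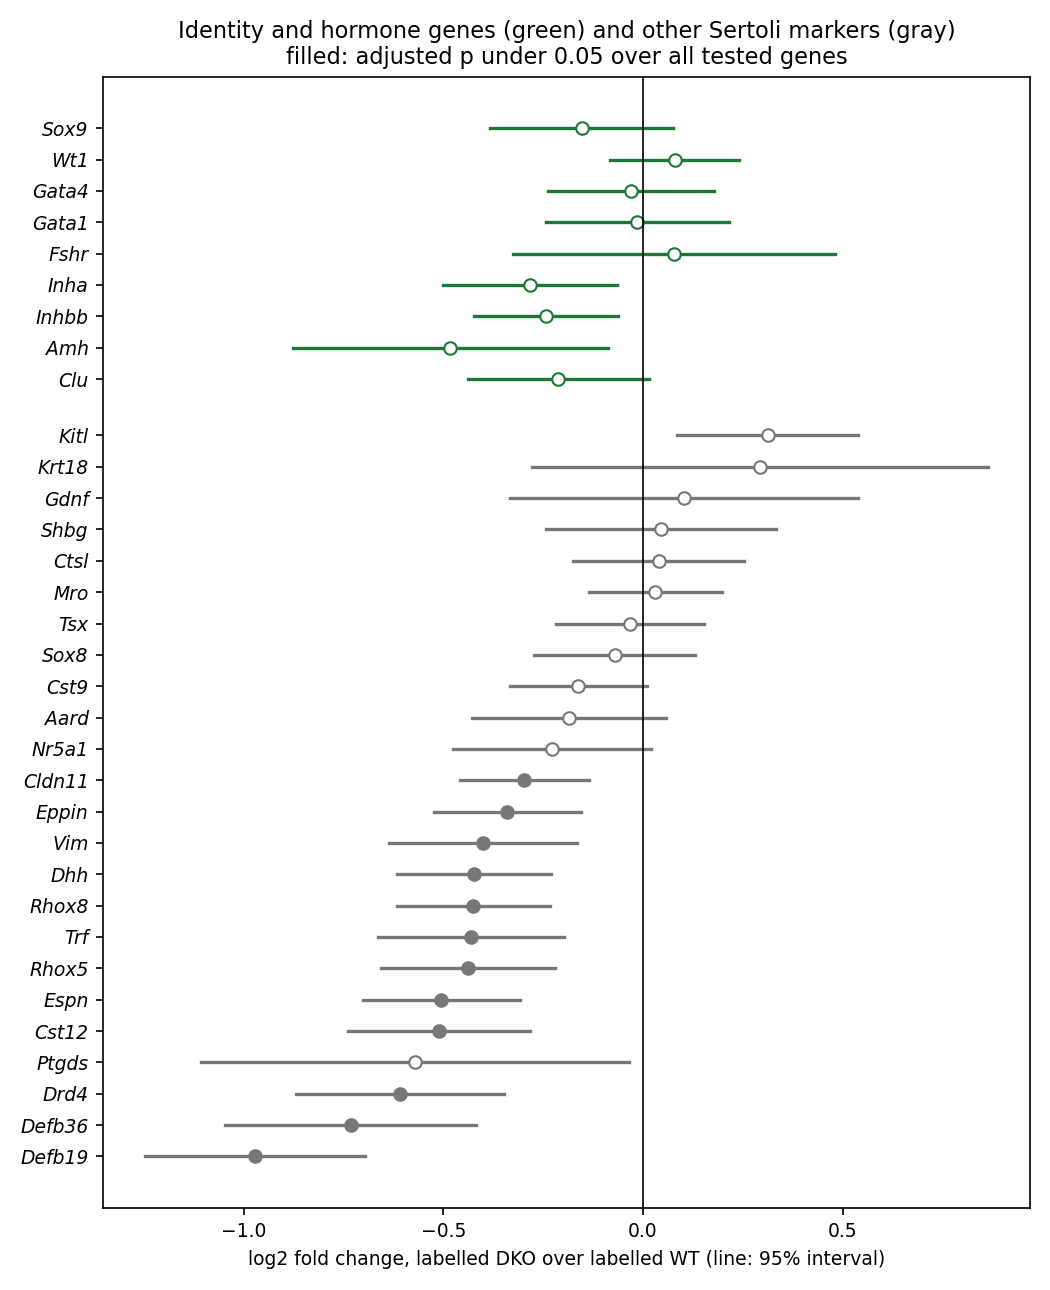
Log2 fold changes (labelled DKO over labelled WT) with 95% intervals for the 9 genes (green) and 24 other Sertoli markers (gray), with filled points for an adjusted p under 0.05. The 9 green points are all open and lie between -0.48 and 0.079, while 12 gray points are filled, from -0.97 for Defb19 to -0.30 for Cldn11.

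Each of the 9 genes was then set against these markers within each library, as log2(TPM + 0.1) minus the mean of the 24. That mean was 5.02, 5.02 and 5.14 in libraries labelled DKO and 5.16, 5.46 and 5.33 in those labelled WT, without overlap. Because the reference was lower in libraries labelled DKO, a gene with equal levels in both groups reads as higher relative to it, so these values describe the proportions and no test of them is reported. Wt1 stood 0.27 and Gata4 0.17 higher relative to the reference in libraries labelled DKO, and the groups were separate. Gata1 and Fshr had differences of 0.20 and 0.29 with overlap, and Fshr was at 0.161 without WT replicate 3. Sox9, Inha, Inhbb and Clu differed by 0.040, -0.059, -0.053 and 0.005 and overlapped. Amh differed by -0.26 with overlap, by -0.157 without DKO replicate 2 and by -0.119 with a pseudocount of 1.

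**Figure D4:**
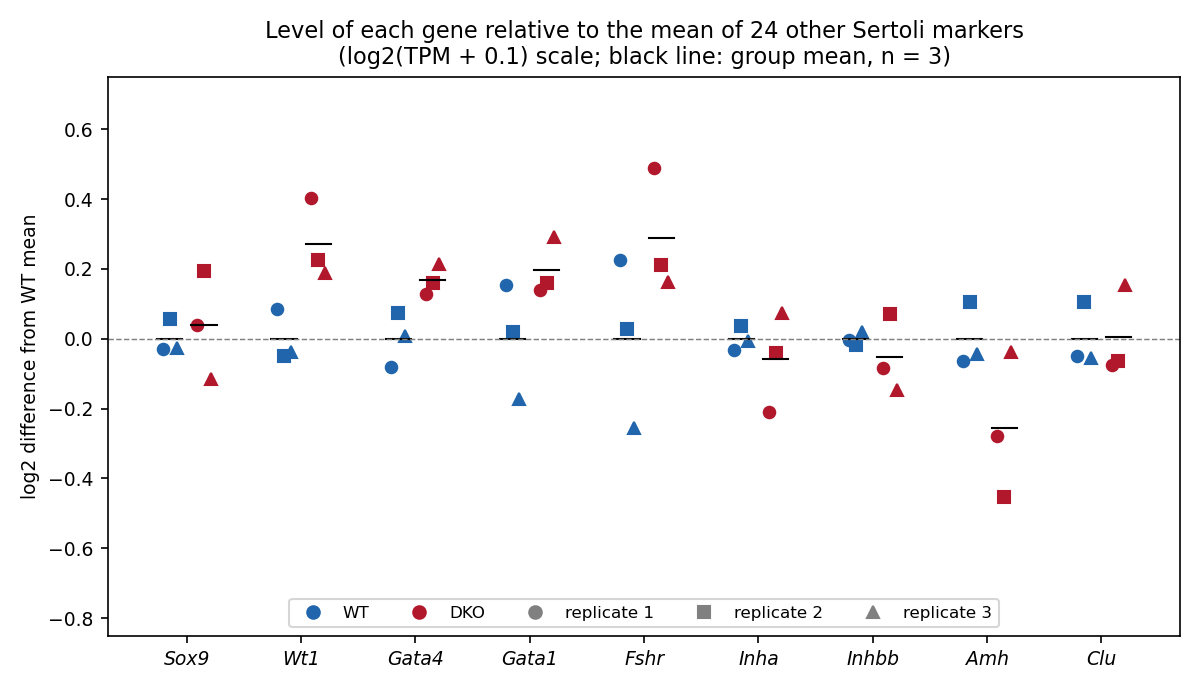
Level of each gene relative to the mean of 24 other Sertoli markers, on the log2(TPM + 0.1) scale and drawn as the difference from the WT mean, 1 point per library with the group mean as a line. For Wt1 and Gata4 the 3 libraries labelled DKO lie above the 3 labelled WT, and the other 7 genes overlap; the reference itself was lower in libraries labelled DKO.

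The markers of other cell types differed in part between the groups and in both directions. Over all tested genes, 10.8% were called, 5.75% higher and 5.1% lower. The summed TPM of the 24 Sertoli markers was 2520 to 2790 in libraries labelled DKO and 2985 to 4004 in those labelled WT. For 12 Leydig markers, genes of the steroid-producing cells, it was 982 to 1652 and 1642 to 3306, which overlap. Of 11 tested, 3 were called (27.3%), all lower (Star, Hsd3b6 and Insl3). Hsd3b1, not called, had a log2 fold change of 0.21. For 7 peritubular myoid markers the sum was 429 to 472 and 532 to 596, with Tagln and Myl9 called lower (28.6% called). For 10 spermatocyte markers the sum was 856 to 1063 and 764 to 822, with Sycp3 and Hormad1 called higher (20% called). Hormad1 overlapped between the groups, and Ccna1 and Piwil1 had log2 fold changes of -0.082 and -0.005. For 10 spermatogonia markers the sum was 754 to 768 and 714 to 769.7 with overlap, and none of the 9 tested was called. The most abundant of these, Dmrtb1, Uchl1 and Id4, had log2 fold changes of 0.077, 0.004 and 0.208. Some sums were mostly 1 gene, as with Dmrtb1 among the spermatogonia markers (mean 639 TPM over 6 libraries). The same held for Insl3 among the Leydig markers (1324 TPM) and Actg2 among the myoid markers (332 TPM). The sums of 10 spermatid markers overlapped between the groups, and their median log2 fold change was -0.042. Of these, 1 was called (10%), namely Akap4, a sheath protein of the sperm tail, which was higher (log2 fold change 0.35, edgeR adjusted p = 0.03415). Neither the 6 endothelial nor the 9 macrophage markers held a called gene, and their sums overlapped. The most abundant of them had log2 fold changes of -0.28 for Cdh5, -0.23 for Pecam1 and -0.066 for Kdr in endothelium and -0.19 for C1qb, -0.46 for C1qc and -0.18 for C1qa in macrophages. Other genes of these lists had values above 0, among them 0.209 for Mrc1, 0.11 for Cx3cr1, 0.029 for Adgre1 and 0.202 for Emcn. The library labelled WT, replicate 2 had the highest sum of the Sertoli, Leydig and myoid lists, the highest CPM of 6 of the 9 genes and the shortest mean fragment length. The part of cell composition or fragment length in the values of the 9 genes was not tested beyond the fits given.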

How the data were processed

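Total RNA from 6 frozen testes was sequenced. Per the submitters' processing notes the tools were STAR 2.7.0f, RSEM 1.2.31 and DESeq2 1.12.3 with build mm10, and their roles and the strand setting are not given in the sources used here. Per the file headers, each deposited file gives an expected count, TPM and FPKM per gene, with a length and an effective length; FPKM was not used. Expected counts were rounded. Genes passing filterByExpr (17110 of 24411) were scaled by TMM and tested with the edgeR 4.0.16 quasi-likelihood test (R 4.3.3) with Benjamini-Hochberg adjustment; calls required an adjusted p below 0.05. Levels between genes are compared in TPM as the authors deposited it. A library's mean fragment length was estimated from genes above 3000 bases, by subtracting each effective length from its length, adding 1 and taking the median. Relative levels used log2(TPM + 0.1), and ratios were compared by exact permutation tests, two-sided. The test planned for relative levels is not reported, because the reference itself differed between the groups. Alternatives were DESeq2 1.42.0, its size factors, no filter, a mean count of 50, an effective-length offset, a fragment-length covariate, a pseudocount of 1 for relative levels, limma 3.58.1 on log2(TPM + 1) and log2(TPM + 0.1), and each library left out. The edgeR step was tested on simulated data.

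The 9 genes and all lists were chosen with earlier results of these data known. Named from each list were its called genes or, where none was called, up to 3 with the highest mean TPM. For any of the 9 genes called, the genes with the most similar pattern were to be named, and none was called. Other list genes given, and the 4 ratios, were singled out after their values were seen. Counting error covers sampling of fragments only. Expected counts carry no molecular identifiers that are stated. A listed transcription factor is not reported here.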

Additional observations from a re-analysis of the deposited data

How the results depend on the processing

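Genes called numbered 1856 (984 higher, 872 lower) by edgeR, 2923 by DESeq2, 735 (279 higher, 456 lower) by limma on log2(TPM + 1), 947 (370 higher, 577 lower) on log2(TPM + 0.1), and 1 with fragment length as a covariate (545 at an unadjusted p under 0.05). Leaving out 1 library gave 7 to 3029. Of the 9 genes, edgeR called 0 (3 at an unadjusted p under 0.05), DESeq2 2, and leave-one-out fits 0 to 2. The count among the 24 other Sertoli markers, an alternative set chosen after seeing the data, was 12, with 7 by limma on log2(TPM + 1), 0 with the covariate and 0 to 14 with 1 library left out. With the covariate, log2 fold changes turned sign for Wt1 (-0.053), Gata4 (0.235), Gata1 (0.19), Inha (0.142), Fshr (-0.181) and Clu (0.188), with an edgeR adjusted p of 0.999 for each; fragment length does not overlap between the groups, so the covariate and the label can hardly be separated. With 1 library left out, log2 fold changes ran from -0.131 to 0.039 for Gata4, -0.088 to 0.032 for Gata1 and -0.037 to 0.139 for Fshr, and those of the other 6 genes kept their sign but moved, from -0.249 to -0.083 for Sox9, 0.012 to 0.112 for Wt1 and -0.306 to -0.121 for Clu. Gata4 turned to 0.039 and Gata1 to 0.032 without WT replicate 2, Gata1 to 0.017 and Fshr to -0.029 without DKO replicate 1, and Fshr to -0.037 without WT replicate 3. Relative to the other Sertoli markers, leaving out 1 library gave -0.038 to 0.117 for Sox9, -0.124 to 0.017 for Inha and -0.07 to 0.058 for Clu, where Clu was -0.02 without WT replicate 1 and -0.023 without WT replicate 3; the signs of the other 6 did not turn. The cause of these shifts was not tested. Where 1 library was left out, the smaller group had 2 libraries. Depth limits Amh and Fshr most. No paired analysis was possible because the labels give the animals no shared numbers.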
